A study of Mus musculus with 12 samples.

Results

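Skeletal muscle regulators were measured in adipocytes differentiated from the stromal vascular fraction (SVF), the mixed cells left after mature adipocytes are removed from digested inguinal white fat. The genes were Myod1 (MyoD), Myog (myogenin), Myf5, Myf6 (MRF4), Pax7, Pax3, Mef2c, Mymk (myomaker), Cdh15 (M-cadherin) and Msc (musculin, also called MyoR). They are 10 of the 55573 genes in the count table and were picked by symbol from their levels in the same libraries, so those levels are given as a description. Calls on them from the fit over all genes are set beside the share of all genes called, and nothing is read from them. All cells came from mice labelled C57BL/6, which the study's methods give as C57BL/6 J. The donors carried WT PPARγ or were homozygous for T166A (TA), with alanine in place of a threonine that can be phosphorylated, or for T166D (TD), with aspartate, which mimics the phosphate, at the same place. Each genotype had 4 libraries.

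The mutations were introduced into the germ line by CRISPR-Cas9, so every cell type of the SVF carried them, and WT littermates were the controls. The age of the donors is not given in the sources used here. All 3 genotypes received the same induction medium for 4 days, with 850 nM insulin, 1 nM T3, 0.5 mM IBMX, 125 nM indomethacin and dexamethasone, followed by insulin and T3 alone until harvest on day 8. The study sequenced these cells to ask how the phosphorylation state of this residue affects lipid metabolism, and the muscle regulators were not its subject. A point mutation leaves the number of reads on Pparg uninformative about the genotype, so the labels could not be checked in that way.

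MyoD, myogenin, Myf5 and MRF4 are the myogenic regulatory factors (MRFs), basic helix-loop-helix proteins that pair with E proteins and bind E-boxes in the promoters of muscle genes. Pax3 and Pax7 mark muscle progenitors and satellite cells, MyoD and Myf5 act in myoblasts, and myogenin and MRF4 act once myoblasts leave the cell cycle and differentiate. MEF2C works beside the MRFs but is also made by endothelial cells, B cells and other types. Myomaker and M-cadherin sit at the myoblast surface during fusion, and musculin is a helix-loop-helix repressor that opposes MyoD. Brown adipocytes share a Myf5-positive ancestry with muscle.

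Promoter stretches of Myog and of a pair of acetylcholine receptor genes are shown because Myog had the most counts of the MRFs, and because receptor subunits are textbook targets of these factors through E-boxes. They are from RefSeq on GRCm38.p6, read 5′ to 3′ on the strand of the gene, lie before the RefSeq start and overlap no annotated exon of the gene. That of Chrng lies within the first intron of a longer transcript in GENCODE. Capitals mark the E-box (CANNTG) and, in Myog, the MEF2 core (CTANNNNTA). Myog lies on the plus strand (chr1:134289854-134289987), Chrna1 on the minus strand (chr2:73580369-73580438) and Chrng on the plus strand (chr1:87205646-87205745).
Myog: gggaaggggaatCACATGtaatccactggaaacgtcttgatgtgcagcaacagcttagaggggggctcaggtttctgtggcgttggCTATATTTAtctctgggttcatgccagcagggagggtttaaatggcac
Chrna1: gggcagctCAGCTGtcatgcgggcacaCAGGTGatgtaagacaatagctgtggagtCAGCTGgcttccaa
Chrng: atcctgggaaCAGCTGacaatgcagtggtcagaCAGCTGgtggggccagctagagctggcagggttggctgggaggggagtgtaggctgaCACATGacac

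The Myog stretch held an E-box 138 bases and a MEF2 core 64 bases before the RefSeq start. A further E-box of Myog, CAGTTG, lay 12 bases before the start, outside the printed stretch. In Chrna1 the E-boxes lay 92, 73 and 44 bases before the start, and in Chrng 155, 132 and 75 bases. Such letters are common. Both strands were searched in windows of 300 bases, and 75.0% of the 27025 genes with a window held CANNTG, 23.5% held CTANNNNTA and 18.3% held CAGCTG, the E-box with a GC core, which is counted in CANNTG too. Among the genes with a window that were also tested for differences between genotypes, the shares were 67.4%, 17.4% and 18.2%. Of 31 muscle and receptor genes called higher in TD than in WT, 25 had a window, of which 22 held CANNTG, 14 CTANNNNTA and 15 CAGCTG. These genes were taken from muscle lists and by their rise in the same libraries, and listed genes not called were not counted. Nothing about the change in TD is therefore read from these numbers. A match is a run of letters and not a measured binding site. Windows of Myog, Myf5, Pax7, Mef2c and Cdh15 were found in the table of promoters, and Myod1, Myf6, Pax3, Mymk and Msc were not.

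Depth was 18823619 to 20324286 counts per WT library, 16950175 to 18182526 per TA library and 16553324 to 18357864 per TD library, so each WT library was deeper than each mutant one. The adipocyte label held in all 12 libraries: Adipoq, the adipokine gene adiponectin, was at 558 to 865 CPM (counts scaled to a common library size), Plin1, which coats lipid droplets, at 906 to 1340 CPM and Fabp4, a fatty acid carrier, at 4520 to 9990 CPM. Ucp1, the uncoupling protein of brown and beige fat, was at 0 to 0.259 CPM. TD replicates 3 and 4 stood apart in muscle genes. The summed level of 24 genes of adult muscle was 346 CPM in TD replicate 3 and 197 CPM in TD replicate 4, against 36.3 and 99.1 CPM in the other TD libraries, 40.9 to 107 CPM in TA and 21.3 to 39.6 CPM in WT. The members are therefore given library by library, and their main ratios and calls also without that pair. In WT most of the summed level came from Eno3, Pgam2, Actn3 and Mb. In WT replicate 3 these had 157, 116, 76 and 65 counts, and the myosin gene Myh1 had 0. Exons of Mb overlap those of a gene with 54295 counts against 1107 for Mb, so its counts are uncertain. In bulk RNA, fewer cells of a type and less RNA per cell cannot be told apart.

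Myog (chr1:134289989-134292548, plus strand, GRCm38) separated WT from both mutants. It had 0 counts in each WT library, 4, 18, 5 and 4 counts in TA replicates 1 to 4, and 7, 22, 61 and 46 counts in TD replicates 1 to 4. Every mutant library was above every WT library, whereas TA and TD overlapped, since TA replicate 2 lay above TD replicate 1. Mean levels were 0.46 ± 0.432 CPM in TA (SD, n = 4) and 1.88 ± 1.32 CPM in TD. The 0 counts over the WT libraries allow a level of up to 0.0385 CPM, set at 3 counts over the group. Against that limit Myog was at least 49.0-fold higher in TD and at least 11.6-fold higher in TA. The ratio of TD to TA was 4.22 (95% interval 2.84 to 6.46). Folds given as at least, here and below, take the mutant counts as observed and cover the counting error of the WT counts only. Intervals cover counting error only, and the spread between libraries was wider. With TD replicates 3 and 4 left out, TD had 29 counts, at least 20.8-fold above WT and 1.79 times TA (1.04 to 3.08).

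Myf6 (chr10:107492853-107494737, minus strand), the MRF of maturing fibers, followed the same order. It was at 0 counts in each WT library, at 2, 7, 0 and 0 counts in TA and at 3, 7, 23 and 20 counts in TD. Every TD library was above every WT library, but 2 TA libraries were level with WT. Over the group the level was at least 19.1-fold higher in TD than in WT. In TA it was at least 3.37-fold higher, from only 9 counts. TD replicates 1 and 2 alone gave a bound of 7.17-fold, and the ratio of TD to TA fell from 5.67 (2.77 to 13.1) to 2.13 (0.778 to 5.92).

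The MRFs of myoblasts were scarcer. Myod1 (chr7:46376474-46379099, plus strand) had 0 counts in each WT library, 1 count in TA replicate 2, and 5 and 12 counts in TD replicates 3 and 4, with 0 in the remaining 5 mutant libraries. Its 17 counts in TD were at least 6.13-fold above WT, and without TD replicates 3 and 4 none were left. Myf5 (chr10:107482908-107486134, minus strand) had 2 counts in TA replicate 1, 5 in TD replicate 2 and 3 in TD replicate 3, and 0 in the other 9 libraries. It was the only MRF whose highest library was TD replicate 2. Myod1 and Myf5 thus overlapped between all genotypes, library by library.

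The progenitor factors were at or near the detection limit. Pax7 (chr4:139737062-139833528, minus strand), the satellite cell factor, had 0 counts in all 12 libraries, which allows up to 0.0385 CPM in WT, 0.0433 CPM in TA and 0.0417 CPM in TD. Pax3 (chr1:78101267-78197134, minus strand), which acts in embryonic muscle progenitors, had 2, 0, 1 and 1 counts in WT, 1 count in TA replicate 3 and 0 counts in TD. Pax3 was the only member with more counts in WT than in the mutants, and 5 counts in all do not separate the genotypes. A level below these limits was not detectable at this depth.

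Next, the fusion genes were examined. Mymk (chr2:27061636-27072179, minus strand), whose membrane protein is required for myoblast fusion, had 1 count in WT replicate 2 and 0 in the other WT libraries. It had 0, 6, 6 and 4 counts in TA and 2, 7, 44 and 17 counts in TD. The ratio of TD to WT was 75.7 (13.1 to 3030), of TA to WT 18.0 (2.79 to 753) and of TD to TA 4.21 (2.42 to 7.77). From TD replicates 1 and 2 alone the ratio of TD to WT was 19.4 (2.68 to 849) and that of TD to TA was 1.08 (0.42 to 2.59). Mymx, whose microprotein is the fusion partner of myomaker, was not a member and had 0, 0, 1 and 3 counts in WT, 3, 0, 1 and 0 in TA and 0, 0, 5 and 10 in TD. Its counts overlapped between all genotypes.

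Cdh15 (chr8:122847966-122867397, plus strand), the M-cadherin gene, had 0 counts in each WT library, 0, 2, 1 and 2 counts in TA and 0, 2, 11 and 11 counts in TD. Set against the WT limit, its counts as observed were 8.65-fold higher in TD and 1.87-fold higher in TA, where only 5 were seen. TD was 4.62 times TA (1.73 to 15.5). TD replicates 1 and 2 held only 2 of these counts, under the limit, so that no fold against WT can be given, and the ratio to TA was 0.767 (0.073 to 4.68). The share of the counts of TD that fell in replicates 3 and 4 was 100% for Myod1, 91.7% for Cdh15, 87.1% for Mymk, 81.1% for Myf6 and 78.7% for Myog. It was 57.6% for Mef2c, 37.5% for Myf5 and 32.9% for Msc.

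**Figure D1:**
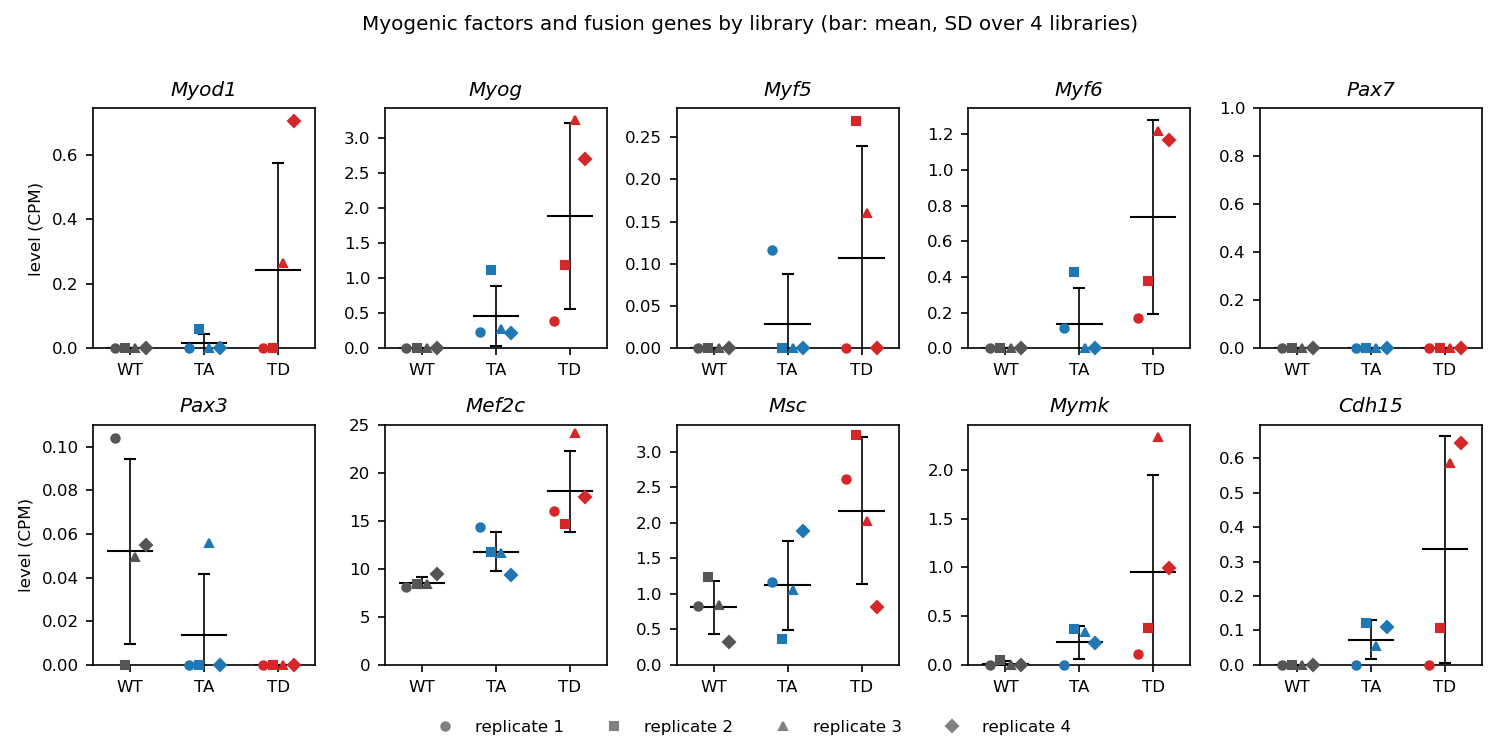
Level in CPM (vertical axis, 1 scale per gene, starting at 0) of the 10 genes in WT, TA and TD (horizontal axis). Each symbol is a library, with the replicate given by its shape, the horizontal line is the mean and the error bar is the SD over 4 libraries, drawn down to 0 at most. Myog is at 0 in WT and at 0.397 to 3.25 CPM in TD, Pax7 is at 0 throughout, and Mef2c and Msc are present in every library.

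Mef2c and Msc were the members present in every WT library. Mef2c (chr13:83504034-83667080, plus strand) had 156, 169, 170 and 172 counts in WT, 246, 192, 211 and 168 in TA and 282, 272, 454 and 299 in TD. Mean levels were 8.58 ± 0.581 CPM in WT, 11.8 ± 2.06 CPM in TA and 18.1 ± 4.21 CPM in TD. Each TD library was above each WT and each TA library, and TA overlapped WT through TA replicate 4. The log2 fold change was 1.08 (SE 0.16) for TD against WT, 0.46 (SE 0.16) for TA against WT and 0.62 (SE 0.15) for TD against TA. In TD replicates 1 and 2 alone the pooled ratio to WT was 1.79 (1.59 to 2.0), against 2.12 (1.93 to 2.33) with all libraries, and that to TA was 1.3 (1.16 to 1.45) against 1.54 (1.41 to 1.68).

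Msc (chr1:14753346-14755992, minus strand) had 16, 25, 17 and 6 counts in the WT libraries, 20, 6, 19 and 34 in those of TA and 46, 60, 38 and 14 in those of TD. Mean levels were 0.811 ± 0.374, 1.12 ± 0.622 and 2.2 ± 1.03 CPM. TD replicate 4 lay within the WT range, and the order of the TD libraries differed from that of the MRFs, with TD replicates 2 and 1 highest. The log2 fold change was 1.41 (SE 0.47) for TD against WT, 0.46 (SE 0.49) for TA against WT and 0.94 (SE 0.46) for TD against TA. The pooled ratio of TD to WT was 2.67 (1.98 to 3.63) with all libraries and 3.56 (2.59 to 4.94) with TD replicates 1 and 2 alone, and that of TD to TA was 1.93 (1.46 to 2.56) and 2.57 (1.9 to 3.49). Exons of Msc overlap those of Gm9947 on the opposite strand, which had 95 counts against 301 for Msc, and the strand setting of the counting is not given in the sources used here, so reads of this pair cannot be told apart with certainty.

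A filter on low counts (edgeR's filterByExpr) left 15117 genes for the fit over all genes. Of the 10 members, Myog, Mef2c and Msc passed this filter, Myog only through the mutant libraries. Genes were called at an adjusted p under 0.05 in edgeR's quasi-likelihood test with Benjamini-Hochberg adjustment. Called higher were 3 members in TD against WT, where 15.1% of all tested genes were called higher, 1 (Myog) in TA against WT, where 6.72% were, and 2 (Mef2c and Myog) in TD against TA, where 7.33% were. None was called lower, beside 14.2%, 4.41% and 9.37% of all genes tested. In TD against TA neither call was made without TD replicate 3, and that of Myog was also lost under 9 other alternatives. The call of Msc in TD against WT was lost without WT replicate 1, 3 or 4 or TD replicate 1, 2 or 3, and that of Myog in TA against WT without WT replicate 1. Each library lay above each library of the other genotype for 4 members in TD against WT (Myog, Myf6, Mef2c and Mymk), for 1 in TA against WT (Myog) and for 1 in TD against TA (Mef2c), beside 15.8%, 7.71% and 9.32% of tested genes. The members were picked on these contrasts, and the comparisons of TD and TA with WT share the WT libraries, so nothing is read from these counts.

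Levels of different genes were compared per kilobase. With all annotated exons as the length, the pooled level in TD was 1.26 CPM per kilobase for Myog, 1.15 for Mef2c, 0.862 for Msc, 0.643 for Mymk, 0.583 for Myf6, 0.127 for Myod1, 0.103 for Cdh15 and 0.0533 for Myf5. In WT the level of Mef2c was 0.545 and that of Msc 0.323 CPM per kilobase. The order of the first 3 depends on the length: with the longest transcript Mef2c was at 2.89 CPM per kilobase and both Myog and Msc were at 1.26. Within TD, Myog and Myf6, the factors of differentiation, were thus above Myod1 and Myf5, the factors of myoblasts, on this scale. The longest run of identical bases between transcripts of the MRFs was 12 to 26 bases, and between Msc and the MRFs 10 to 12 bases. Between Myh1 and its myosin relatives Myh2, Myh3, Myh4 and Myh8 such runs were 94 to 268 bases long, so the split of reads between myosin genes is uncertain.

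Whether the factors kept step with a muscle structural gene was described as the counts per 1000 counts of Myh1, a fast myosin heavy chain. Myh1 had 57, 1, 0 and 35 counts in WT, 103, 475, 180 and 95 in TA and 92, 481, 2202 and 1045 in TD. Per 1000 Myh1 counts there were 36.3 Myog counts in TA (24.7 to 51.6) and 35.6 in TD (29.9 to 42.1). Library by library this ratio ran from 27.7 to 76.1, while Myh1 itself ran from 92 to 2202 counts.

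Mymk had 18.8 counts per 1000 Myh1 counts in TA (10.7 to 30.5) and 18.3 in TD (14.3 to 23.2). For Myf6 the values were 10.6 (4.82 to 20) and 13.9 (10.4 to 18.1), and for Cdh15 5.86 (1.9 to 13.7) and 6.28 (4.03 to 9.35). For these 4 genes the intervals of TA and TD overlapped. They cover the counting error of the gene alone, and neither that of Myh1 nor the spread between libraries. A difference between the mutants relative to Myh1 was not tested. The scarcer MRFs varied more within TD. Myod1 had 2.27 counts per 1000 Myh1 counts in TD replicate 3 (0.737 to 5.3) and 11.5 in TD replicate 4 (5.93 to 20.1), and Myf5 had 10.4 in TD replicate 2 (3.38 to 24.3) and 1.36 in TD replicate 3 (0.281 to 3.98). WT had 93 Myh1 counts, of which 57 and 35 came from WT replicates 1 and 4. At the ratios of TA and TD these would go with 3.38 and 3.31 Myog counts, both slightly above the limit of 3 that a count of 0 allows. For Mymk they would go with 1.74 and 1.7 counts, where 1 was seen. For Myf6 they would go with 0.981 and 1.29 counts, where 0 were seen. Whether WT kept these ratios was not tested. With Myh3, the embryonic myosin heavy chain, as the reference, Myog was at 195 counts per 1000 in TA (132 to 277) and 191 in TD (160 to 226).

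Mef2c and Msc did not keep a ratio to Myh1. Per 1000 Myh1 counts, Mef2c had 342 counts in TD, 958 in TA and 7170 in WT. The intervals of these pooled ratios did not overlap, but they cover the counting error of Mef2c alone. Within TD the ratio of Mef2c ran from 206 in replicate 3 to 3070 in replicate 1. Single libraries overlapped between genotypes, with WT replicate 1 at 2740 and TA replicate 1 at 2390. WT replicate 3 had no Myh1 counts and so no ratio. Msc had 688, 92.6 and 41.4 counts per 1000 Myh1 counts in WT, TA and TD, and ran from 13.4 to 500 within TD.

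**Figure D2:**
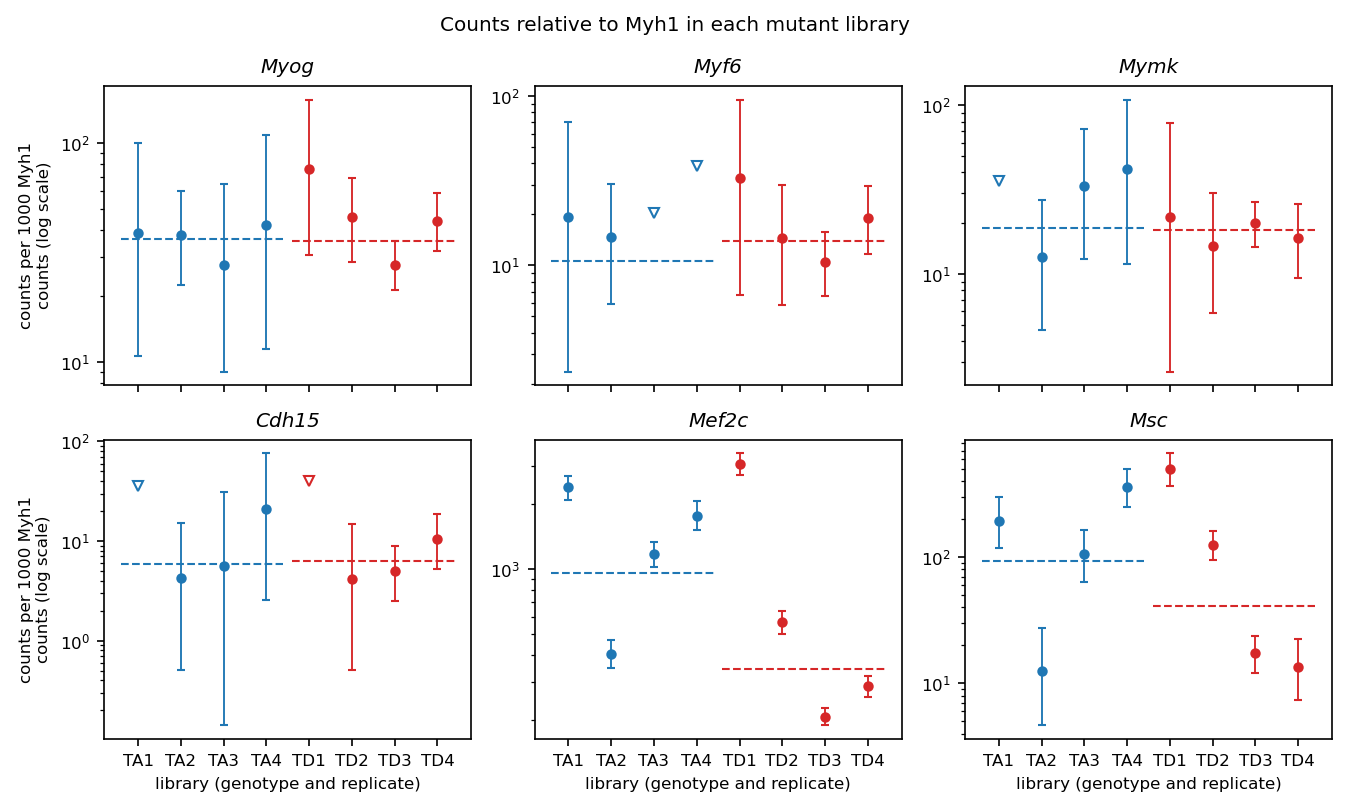
Counts per 1000 Myh1 counts (vertical axis, log scale, 1 scale per gene) in each TA and TD library (horizontal axis). Points carry exact 95% Poisson intervals for the counts of the gene, open triangles are upper limits of libraries with 0 counts, and dashed lines are the pooled ratios of each mutant. Myog lies at 36.3 in TA and 35.6 in TD, whereas Mef2c goes from 958 to 342.

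Among 15114 other tested genes, those most like Myog in log2 CPM over the 12 libraries were Smpx, Tnnt2, Myom2, Pdlim3, Lmod2, Myh3, Casq1, Hrc, Trim72 and Neb, with Pearson's r of 0.98 to 0.95. By Spearman's rho 7 of these 10 were again among the first 10. The likeness is a description over 12 libraries of 3 genotypes, which share their genotype and their depth. All 10 are known from sarcomeres, the sarcoplasmic reticulum or the repair of muscle membranes. Smpx, a small muscle protein, had 1, 1, 0 and 0 counts in the WT libraries, 3, 10, 4 and 3 in those of TA and 5, 15, 67 and 35 in those of TD, the same order of libraries as Myog within TD. Mef2c had an r of 0.884 with Myog, and 51 tested genes were more like Myog than it was. Msc had an r of 0.311, and 4748 genes were more like Myog.

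The partners and inhibitors of the MRFs were described next. Of 19 listed E proteins and inhibitors 18 were tested, and in TD against WT 6 rose and 1 fell, with a median log2 fold change of 0.24 against 0.01 over all tested genes. Snai1 (1.09, SE 0.16) and Snai2 (0.84, SE 0.19), zinc finger repressors that compete for E-boxes, rose together with Mdfi (1.07, SE 0.32), which holds MRFs in the cytoplasm, and Hes1 (0.88, SE 0.16), a target of Notch. Id1, which titrates E proteins, fell by 0.34 (SE 0.09) on the log2 scale. The E protein genes Tcf3 (0.34, SE 0.09) and Tcf4 (0.39, SE 0.09), named after their values were seen, rose. Id2 (0.24, SE 0.19), Id3 (0.11, SE 0.10) and a further E protein gene, Tcf12 (0.02, SE 0.07) did not pass the test, and the sign of Tcf12 changed between settings. In TA against WT 3 rose and in TD against TA 1 rose and 1 fell. The call of Mdfi was lost without WT replicate 4 or TD replicate 3, and that of Tcf3 without TD replicate 4. With both TD replicates 3 and 4 left out, 3 genes rose in TD against WT and none fell, and the calls of Mdfi, Snai2, Tcf3, Tcf4 and Id1 were lost.

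Of 20 MEF2 paralogs and upstream factors 12 were tested, of which 5 rose and 1 fell in TD against WT (median 0.10). Mef2a was at -0.03 (SE 0.09) and Mef2d at 0.10 (SE 0.07), and neither passed the test; the sign of Mef2a changed with the scaling. Mef2d rose by 0.31 (SE 0.07) in TD against TA. Smyd1, a methyltransferase of the sarcomere and a MEF2 target, rose by 3.18 (SE 0.90). The homeobox genes Meox1 (1.92, SE 0.44) and Meox2 (1.15, SE 0.26) and the transcriptional cofactor gene Eya4 (0.94, SE 0.23) rose as well, and Tbx1 (-0.71, SE 0.26) fell. Six4 (0.06, SE 0.19), a homeobox gene of muscle progenitors, did not pass the test and changed sign without WT replicate 2, and Eya1 was at 0.497 CPM or less in all libraries. In TA against WT 2 rose, and in TD against TA 2 rose and 1 fell. Calls of Smyd1, Meox1, Eya4 and Tbx1 were lost without TD replicates 3 and 4, which left 2 rises and no fall in TD against WT. Smyd1 lost its call without TD replicate 3 alone, and Tbx1 under 11 alternatives.

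Satellite cell and myoblast markers gave 9 rises and 2 falls among 16 tested of 20 in TD against WT (median 0.75). Des, the intermediate filament gene of muscle, rose by 2.08 (SE 0.41), Cd34 by 1.61 (SE 0.25), the chemokine receptor gene Cxcr4 by 1.44 (SE 0.51) and the Notch ligand gene Dll1 by 1.20 (SE 0.41). Cd34 is also made by endothelial cells and adipose progenitors. The laminin receptor gene Itga7 (-0.53, SE 0.10) and the HGF receptor gene Met (-0.33, SE 0.12), both used by satellite cells, fell. In TA against WT 3 rose and 1 fell, and in TD against TA 4 rose and 1 fell. Leaving out TD replicates 3 and 4 left 5 rises and 1 fall in TD against WT. The calls of Cxcr4, Dll1 and Met were each lost under 8 or 9 alternatives, among them single WT and TD libraries left out.

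Of 31 genes of myoblast adhesion and fusion 24 were tested, and 10 rose and 3 fell in TD against WT (median 0.24). Jam2 (1.38, SE 0.19), Jam3 (0.84, SE 0.16), Ncam1 (1.20, SE 0.37) and Vcam1 (0.86, SE 0.11), which encode adhesion molecules of the cell surface, rose. Jam2 and Vcam1 are likewise made by endothelium, and Ncam1 and Vcam1 are also on the list of satellite cell markers. Tmem182 (-0.72, SE 0.18), a membrane protein gene of muscle and fat, and Dysf (-0.66, SE 0.13), which reseals membranes, fell. In TA against WT 3 rose and 3 fell and in TD against TA 5 rose and 1 fell. From TD replicates 1 and 2 alone there were 3 rises and 2 falls in TD against WT, and Ncam1 lost its call without WT replicate 1, 3 or 4 or TD replicate 4.

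Of 13 genes of the acetylcholine receptor and the neuromuscular junction 7 were tested. In TD against WT, Chrna1, the alpha subunit of the muscle acetylcholine receptor, rose by 4.11 (SE 0.95) and Lrp4, the receptor of agrin, by 1.05 (SE 0.28), and none fell (median 1.05). Chrna1 had 3, 6, 0 and 2 counts in WT, 2, 36, 9 and 4 in TA and 6, 28, 108 and 44 in TD. Chrng, the gamma subunit of the fetal receptor, was not tested and had 0 counts in each WT library, 2, 5, 3 and 3 in TA and 0, 2, 18 and 22 in TD. Chrna1 and Chrng, whose E-boxes are printed above, had their highest counts in TD replicates 3 and 4, as Myog did. No gene of the list was called in TA against WT or in TD against TA, and the calls of Chrna1 and Lrp4 in TD against WT were lost without TD replicates 3 and 4 (adjusted p = 0.123 and 0.127 in edgeR with Benjamini-Hochberg adjustment).

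Genes of muscle structure had the largest list medians. In TD against WT 15 of 19 tested genes of early differentiation rose and 1 fell (median 3.26). Of adult muscle 14 of 16 tested genes rose and none fell (median 4.15), where 15.1% of all tested genes were called higher. Some genes of both lists, Tnnt2 and Actn2 among them, passed the filter on low counts only through the mutant libraries, as Myog did. The counts and medians of these lists are thus partly set by the filter and are given as a description. Myh3 rose by 6.32 (SE 0.97), the cardiac and fetal actin gene Actc1 by 5.20 (SE 1.05) and the perinatal myosin gene Myh8 by 5.07 (SE 0.82). Tnnt2, an embryonic troponin T gene, had 224 counts in TD, 58 in TA and 2 in WT, a ratio of TD to WT of 121 (33.1 to 1010). Cdkn1a, which holds differentiating myoblasts out of the cell cycle and acts in many cell types, fell by 0.45 (SE 0.08).

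Of the adult genes Mybpc1 (5.75, SE 1.00), Actn2 (5.62, SE 1.06) and Myh1 (5.44, SE 0.94) rose, all parts of the sarcomere. Tnnc2 overlaps Ube2c, which had 886 counts against 174, so its counts are uncertain. In TA against WT 4 early genes and 6 adult genes rose, and in TD against TA 6 and 5 rose and 1 early gene, Cdkn1a (-0.43, SE 0.08), fell. For TD against TA the log2 fold change of Myh1 was 2.06 (SE 0.72), which did not pass the test, beside 2.04 (SE 0.65) for Myog. When TD replicates 3 and 4 were left out, 8 genes of either list rose in TD against WT and none in TD against TA, while 6 and 9 rose in TA against WT. Myh3, Myh8, Mybpc1, Actn2 and Myh1 kept their calls in TD against WT under every alternative in which they were tested. Actc1 lost its call without TD replicates 3 and 4. None of these genes was tested where at least 10 counts in every library were required.

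**Figure D3:**
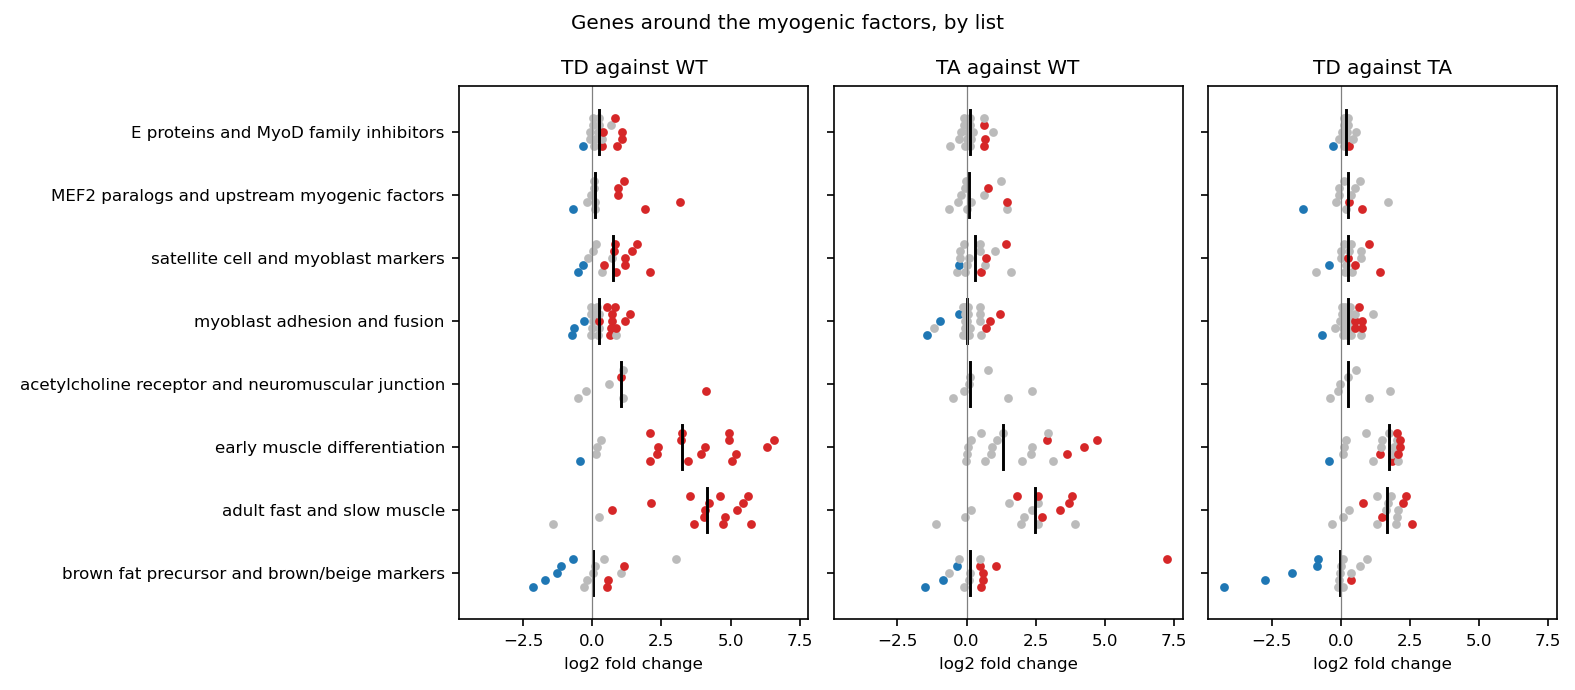
Log2 fold change (horizontal axis) of each tested gene in 8 lists (rows) for the 3 comparisons (panels). Red points were called higher and blue points lower by edgeR, gray points were not called, and black bars are list medians. The muscle lists reach medians of 3.26 and 4.15 in TD against WT, and the lists of E proteins and MEF2 paralogs stay at 0.24 and 0.10.

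Brown fat precursor and beige markers were included because of the shared ancestry with muscle. Of 18 listed 15 were tested, and 3 rose and 5 fell in TD against WT (median 0.02). Tmem26 (1.15, SE 0.32), Hoxc9 (0.58, SE 0.11) and Tbx15 (0.53, SE 0.10) rose, the first and the second being markers of beige and white fat. Elovl3 (-2.13, SE 0.21) and Cox7a1 (-1.70, SE 0.24), genes of active brown fat, fell. Tmem26 lost its call when TD replicates 3 and 4 were left out. In TA against WT 6 rose and 3 fell, and in TD against TA 1 rose and 5 fell.

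Markers of other cell types moved as well. Endothelial markers rose in TD against WT for 7 of 8 genes, with a summed level of 28.3 to 60.5 CPM in WT, 52.5 to 97.7 CPM in TA and 112 to 142 CPM in TD, and no defining marker was at 0. Fibroblast and adipose progenitor markers rose for 7 of 8 genes (4400 to 5200, 4240 to 7410 and 6940 to 9430 CPM). Smooth muscle markers rose for 5 of 7 tested of 8 genes (165 to 176, 177 to 233 and 200 to 232 CPM) and Schwann cell markers for 4 of 8 (251 to 340, 312 to 358 and 367 to 410 CPM). Adipocyte markers fell for 6 of 8 genes, from 18000 to 20000 CPM in WT and 17300 to 21600 CPM in TA to 12700 to 14300 CPM in TD.

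None of the 8 macrophage markers passed the test in TD against WT (272 to 797, 133 to 580 and 612 to 854 CPM). Of 8 cardiac markers 2 were tested, the summed level was at most 4.27 CPM in any library, and Nkx2-5, which defines the cardiac lineage, was at 0 in all 12. Of 6 B cell markers none could be tested, and their sum was at most 1.06 CPM. In TA replicates 1 to 4 Mef2c was at 14.4, 11.8, 11.7 and 9.34 CPM, Myh1 at 6.02, 29.2, 10 and 5.28 CPM and the endothelial sum at 78.7, 52.5, 97.7 and 80.1 CPM. In TD replicates 1 to 4 Mef2c was at 16, 14.7, 24.2 and 17.5 CPM, Myh1 at 5.22, 25.9, 117 and 61.3 CPM and the endothelial sum at 121, 114, 112 and 142 CPM. In TA the order of the libraries by Mef2c was neither that by Myh1 nor that by endothelial markers. In TD the order by Mef2c was that by Myh1, except that the lower pair, at 16 and 14.7 CPM of Mef2c, was reversed. By endothelial markers the TD library highest in Mef2c was the lowest, at 112 CPM, and the next was the highest, at 142 CPM. The part of these cell types in the levels of the members was not tested.

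**Figure D4:**
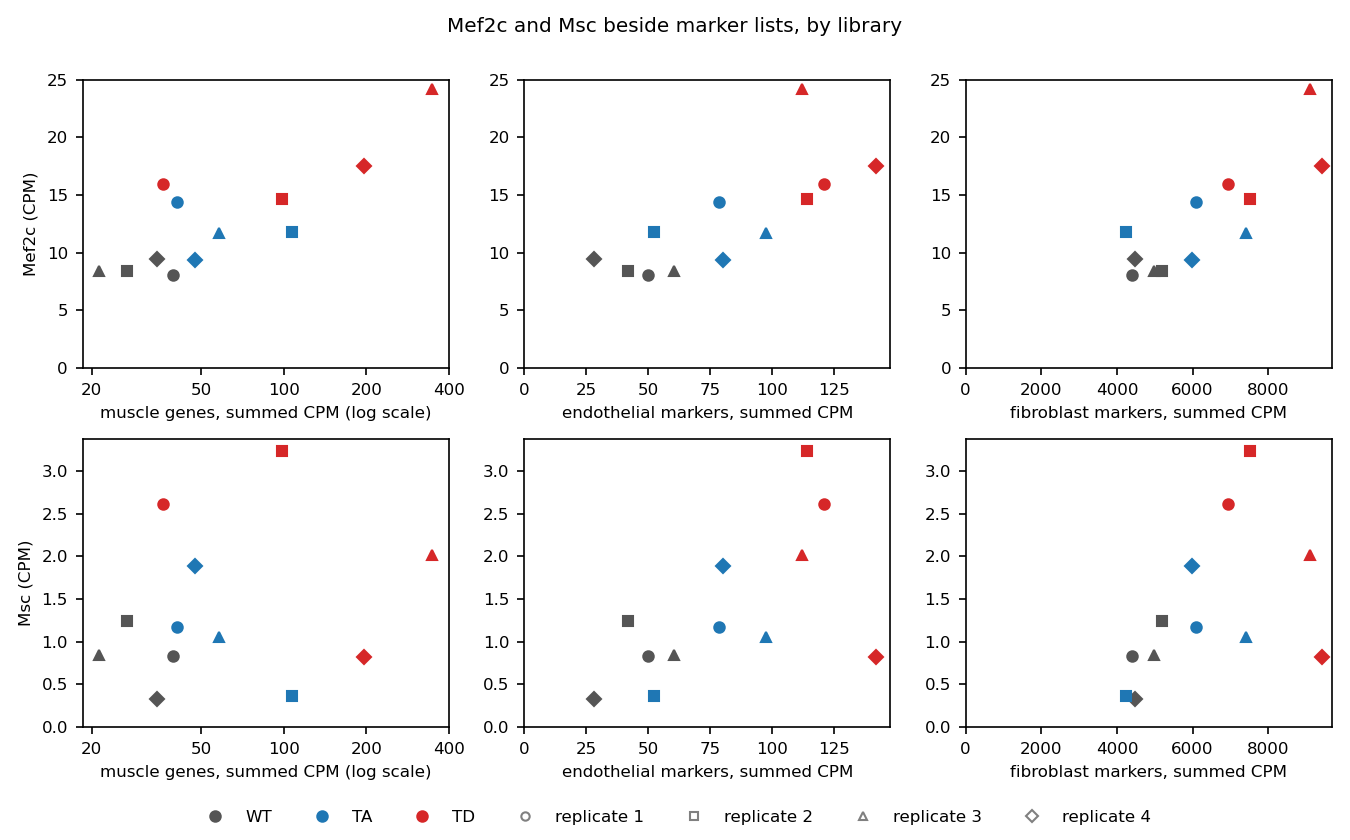
Level of Mef2c (upper row) and Msc (lower row) in CPM against the summed CPM of 24 genes of adult muscle (log axis), 8 endothelial markers and 8 fibroblast markers, with 1 symbol per library. TD libraries lie at 112 to 142 CPM of endothelial markers and at 14.7 to 24.2 CPM of Mef2c, and muscle genes spread from 36.3 to 346 CPM within TD.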

How the data were processed

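RNA was profiled in SVF-differentiated adipocytes. According to the submitters' processing notes, reads were handled with bcl2fastq 2.17.1.14 and cutadapt 1.9.1, aligned to GRCm38 with HISAT2 2.0.1 and counted with HTSeq 0.6.1. The deposited values are raw counts per gene, which the authors did not normalize, and the 12 library files were equal to the table. The members and lists were chosen with earlier results of these data known.

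Genes were annotated with GENCODE M21 (99.8% of identifiers matched). In R 4.3.3, edgeR 4.0.16 was applied with filterByExpr (minimum count 10, minimum total 15), TMM and 1 quasi-likelihood fit of genotype over 12 libraries, two-sided, with a threshold of 0.05 after Benjamini-Hochberg adjustment over 15117 genes. CPM used normalized library sizes, and log2 CPM a prior count of 2. The labels do not say whether replicates were separate mice or cultures, so p-values measure only the spread between these samples. In each of 18 replicate pairs counts differed by more than sampling noise (chi-square per degree of freedom 4.67 to 35.3).

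Besides the members, named genes were up to 4 rises and 2 falls of each list by size in TD against WT (mean of at least 1 CPM), neighbors of the members in the pathway and the 10 genes most like Myog. Leaving out TD replicates 3 and 4 was chosen after their values were seen. Intervals are exact Poisson or binomial ones. DESeq2 1.42.0, other scalings, filters and left-out libraries were alternatives. On simulated counts for 15117 genes in TD against WT, 84.5% of 200 changed genes were recovered.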

Additional observations from a re-analysis of the deposited data

Results flagged for a closer look

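Myog in TA replicate 2 lay far from the other TA libraries, at 1.11 CPM against 0.222 to 0.278 CPM, a gap of 0.937 of the range of the group, above Dixon's 95% critical value for 4 samples. It was the only such value among the 17 groups of libraries (1 member in 1 genotype) with more than 3 counts, to which the examination was limited, and chance flags about 1 in 20 such groups. TA replicate 2 was also the highest TA library for Myh1, with 475 counts against 95 to 180, for Chrna1, with 36 counts against 2 to 9, and for Myf6, with 7 counts against 0 to 2. It was the lowest TA library for Msc, with 6 counts against 19 to 34.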

How the results depend on the processing

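Called members numbered 3 for TD against WT, 1 when TA was set against WT and 2 for TD against TA. DESeq2 called 5 in TD against WT, adding Mymk and Myf6. Without a filter on low counts the numbers were 7, 4 and 4, and with at least 10 counts in every library 1, 0 and 1, since fewer members are then tested. A fit of only the genotypes compared gave 1 member in TD against TA and 0 in TA against WT. In the fit of TA and WT alone Myog did not pass the filter, so it was not tested there. It had 18 counts in TA replicate 2 and at most 5 in any other of those libraries. Leaving out libraries in turn gave 2 to 3 for TD against WT and 0 to 2 for either other comparison, with 0 in TD against TA without TD replicate 3 and 0 in TA against WT without WT replicate 1. Without TD replicates 3 and 4, an alternative chosen after seeing the data, TA against WT had 2 and TD against TA had 0.

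Over all genes 4418, 1683 and 2524 were called. With libraries left out in turn there were 3121 to 4705 in TD against WT and 1422 to 3526 in TD against TA, where TA replicate 2 (1422), TD replicate 3 (1586) and TD replicate 4 (1432) lowered the count by over 1.5 times. Without TD replicates 3 and 4 TD against WT had 1516 and TD against TA 634. Signs turned only for 3 genes near 0. Mef2a was at 0.04 with library totals only, at -0.06 to 0.00482 with libraries left out in turn and at 0.01 without TD replicates 3 and 4. With libraries left out in turn Six4 ran from -0.09 to 0.17 and Tcf12 from -0.00406 to 0.05, and Tcf12 was at -0.01 without TD replicates 3 and 4. Of the log2 fold changes of single genes under the alternatives, 1003 kept their direction and side of the threshold, 79 lost the call and 4 gained it. The causes were not tested.

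Replicate numbers did not pair the libraries: deviations of same-numbered libraries correlated at -0.237 to 0.196, with 2 of 12 pairs over 0.1, and other pairs at -0.257 to 0.264. With the replicate block 4246, 1560 and 2488 genes and 2, 1 and 1 members were called, those of Msc in TD against WT and Myog in TD against TA being lost. Depth limits Pax7, Pax3, Myod1, Myf5 and Mymx, whose counts were at or near 0.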
